A study of Mus musculus with 32 samples.

Results

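The genes described here are 10 components of endothelial Notch signalling and of arterial gap junctions, measured in cultured mouse lung endothelial cells (ECs). They are the Notch ligands Jag1, Jag2 and Dll4, the receptors Notch1 and Notch4, the target transcription factors Hes1, Hey1 and Hey2, and the connexins Gja4 (connexin 37) and Gja5 (connexin 40). The set was chosen with earlier results of these data known, its rows were taken by gene symbol, and all 10 were found among the 54429 symbols of the merged count table. The cells were the Veravec lung EC line, so all groups share 1 cell line, and all were transfected in 2 rounds with a control siRNA (si-control) or an siRNA against Dnmt1 (si-dnmt). Each siRNA was followed by no cytokine, TNF (TNFα, 10 ng/mL), IFN (IFNγ, 1000 U/mL) or TNF + IFN for 16 h. The 8 groups held 4 replicates each, which gave 32 bulk RNA-seq libraries of 17362546 to 33500030 counts (median 20859668).

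Notch receptors are cut after they bind a ligand on a neighbouring cell, and the freed intracellular domain joins the DNA-binding protein RBPJ to switch on genes such as Hes1, Hey1 and Hey2. In blood vessels Dll4 and Jag1 act on sprouting and on arterial identity, and connexins 37 and 40 form the channels that couple arterial ECs. Dnmt1 is the enzyme that copies methylation of CG dinucleotides onto newly made DNA, and methylation itself was not measured in these samples.

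Jag1, Notch1 and Gja5, which met the threshold between siRNAs, and Gja4 are shown with the 250 bases before their start. The CG dinucleotides on which Dnmt1 acts can thus be seen. Gja4 met the threshold too, but it passed the filter on low counts through si-control + TNF + IFN. Its call is therefore not a test of a difference. The sequences are from RefSeq on GRCm38.p6, 5′ to 3′ on the strand of the gene, with CG in capitals. The Jag1 stretch is chr2:137116521-137116770 (minus strand), that of Notch1 chr2:26503823-26504072 (minus strand), that of Gja4 chr4:127314040-127314289 (minus strand) and that of Gja5 chr3:97032152-97032401 (plus strand).
Jag1: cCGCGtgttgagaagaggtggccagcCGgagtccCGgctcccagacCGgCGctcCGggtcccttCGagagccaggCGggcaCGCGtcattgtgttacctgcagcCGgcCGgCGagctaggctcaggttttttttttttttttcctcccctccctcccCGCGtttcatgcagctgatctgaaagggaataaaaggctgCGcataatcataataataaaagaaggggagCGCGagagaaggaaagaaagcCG
Notch1: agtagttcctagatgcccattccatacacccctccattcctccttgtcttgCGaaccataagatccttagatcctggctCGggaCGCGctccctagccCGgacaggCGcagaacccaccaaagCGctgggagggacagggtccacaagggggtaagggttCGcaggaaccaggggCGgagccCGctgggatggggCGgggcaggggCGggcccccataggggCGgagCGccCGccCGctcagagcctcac
Gja4: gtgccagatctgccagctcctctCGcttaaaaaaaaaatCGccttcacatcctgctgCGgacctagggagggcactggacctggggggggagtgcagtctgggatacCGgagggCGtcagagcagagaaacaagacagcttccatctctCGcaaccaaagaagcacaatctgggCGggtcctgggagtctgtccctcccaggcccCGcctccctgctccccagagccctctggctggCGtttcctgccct
Gja5: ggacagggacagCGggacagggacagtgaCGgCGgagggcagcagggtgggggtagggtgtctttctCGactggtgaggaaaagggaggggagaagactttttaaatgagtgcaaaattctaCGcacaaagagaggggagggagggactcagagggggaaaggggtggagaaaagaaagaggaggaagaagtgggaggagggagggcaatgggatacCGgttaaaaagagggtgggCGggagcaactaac
These stretches held 20 CG in Jag1, 16 in Notch1, 9 in Gja4 and 7 in Gja5, against a median of 6 (quartiles 2 and 16) over 32851 promoters of the same length. The other members with an entry were Hey2 with 22 CG, Dll4 with 14, Notch4 with 4 and Jag2 with 54, so Jag2 had the densest stretch of the 8 and Notch4 the sparsest. Hey1 and Hes1 were without an entry. The RBPJ core TGGGAA, searched on both strands, was found in the Hey2 stretch only, while 21.6% of all promoters held it. The GAS element TTCNNNGAA, an IFNγ response element, was in 0 of the 8 members and 7.02% of all promoters. The NF-kB consensus had 1 match each in the Notch4 and Dll4 stretches, and 7.25% of all promoters held it. All motifs were searched on both strands.

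Dnmt1, the silenced gene, averaged 120 ± 35.3 CPM (counts scaled to library size with TMM, SD, n = 4) with the control siRNA against 8.92 ± 2.92 CPM with si-dnmt, and it was lower in every si-dnmt library than in every si-control library of the same cytokine state. All 12 endothelial markers examined, Pecam1 and Cdh5 among them, were above 1 CPM on average in every group, while the defining leukocyte gene Ptprc and epithelial gene Epcam never exceeded 3 counts and Cd3e and Sftpc were at 0. Other genes of those lists were present. The 8 leukocyte markers summed to 67.6 to 232 CPM, mostly Cd68 (49.1 to 214 CPM) and Lyz2 (1.21 to 133 CPM), and Krt18 of the epithelial list ran from 3.65 to 22.6 CPM. The 6 fibroblast markers summed to 17.9 to 80.6 CPM over the si-control libraries and 10.8 to 34.5 CPM over the si-dnmt libraries, mostly Col3a1 (up to 78.0 CPM) and Dcn (up to 53.8 CPM). The 4 lymphatic endothelial markers summed to 421 to 1277 CPM over all libraries. Lyve1 ran from 155 to 602 CPM, Flt4 from 164 to 622 CPM and Pdpn from 92.8 to 220 CPM, while Prox1 was at 0 to 2.60 CPM. In cytokine comparisons Pecam1 and Cdh5 themselves fell with TNF and TNF + IFN, Cdh5 by 0.82 ± 0.23 (SE) on the log2 scale with TNF + IFN in si-control (adjusted p = 0.00482). In bulk samples fewer cells of a type and less RNA per cell cannot be told apart. The summed level of 10 pericyte and smooth muscle markers was 8.48 to 71.0 CPM over the 16 si-control libraries and 40.8 to 233 CPM over the 16 si-dnmt libraries. Acta2 alone ran from 6.94 to 227 CPM, and the defining pericyte marker Rgs5 never exceeded 1 count. The part of this in the siRNA results was not tested. Replicates 1 and 2 of every group stood apart from replicates 3 and 4: deviations from the group mean correlated at −0.59 to −0.24 between libraries of different sets. The 2 sets are therefore described separately wherever they matter, and the fit was repeated with the replicate number as a block (the blocked fit). The labels give no reason for the split.

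Per kilobase of annotated exon, 4 members stood at the top in si-control. Hes1 was at 16.9 ± 6.93 CPM per kb (SD, n = 4), Notch1 at 16.3 ± 1.04, Jag1 at 16.0 ± 1.75 and Notch4 at 14.2 ± 0.613. Notch4 was below Notch1 in each of these 4 si-control libraries, and Hes1 and Jag1 overlapped both. Dll4 followed at 5.61 ± 4.08 CPM per kb. Gja5 (0.347 ± 0.158 CPM per kb) and Jag2 (0.274 ± 0.160) were far lower and overlapped each other. Hey1 (0.0244), Gja4 (0.0132) and Hey2 (0.00244) rested on 7, 2 and 1 counts over the 4 libraries. With TNF + IFN in si-control Gja4 moved up this order to 1.59 ± 0.209 CPM per kb, above Gja5 and Jag2, and Hes1 moved down to 6.29 ± 3.85. Gja4 was below Dll4 in replicates 1 and 2 (1.60 and 1.61 against 5.36 and 5.16 CPM per kb) and above it in replicates 3 and 4 (1.83 and 1.32 against 0.672 and 0.893).

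**Figure D1:**
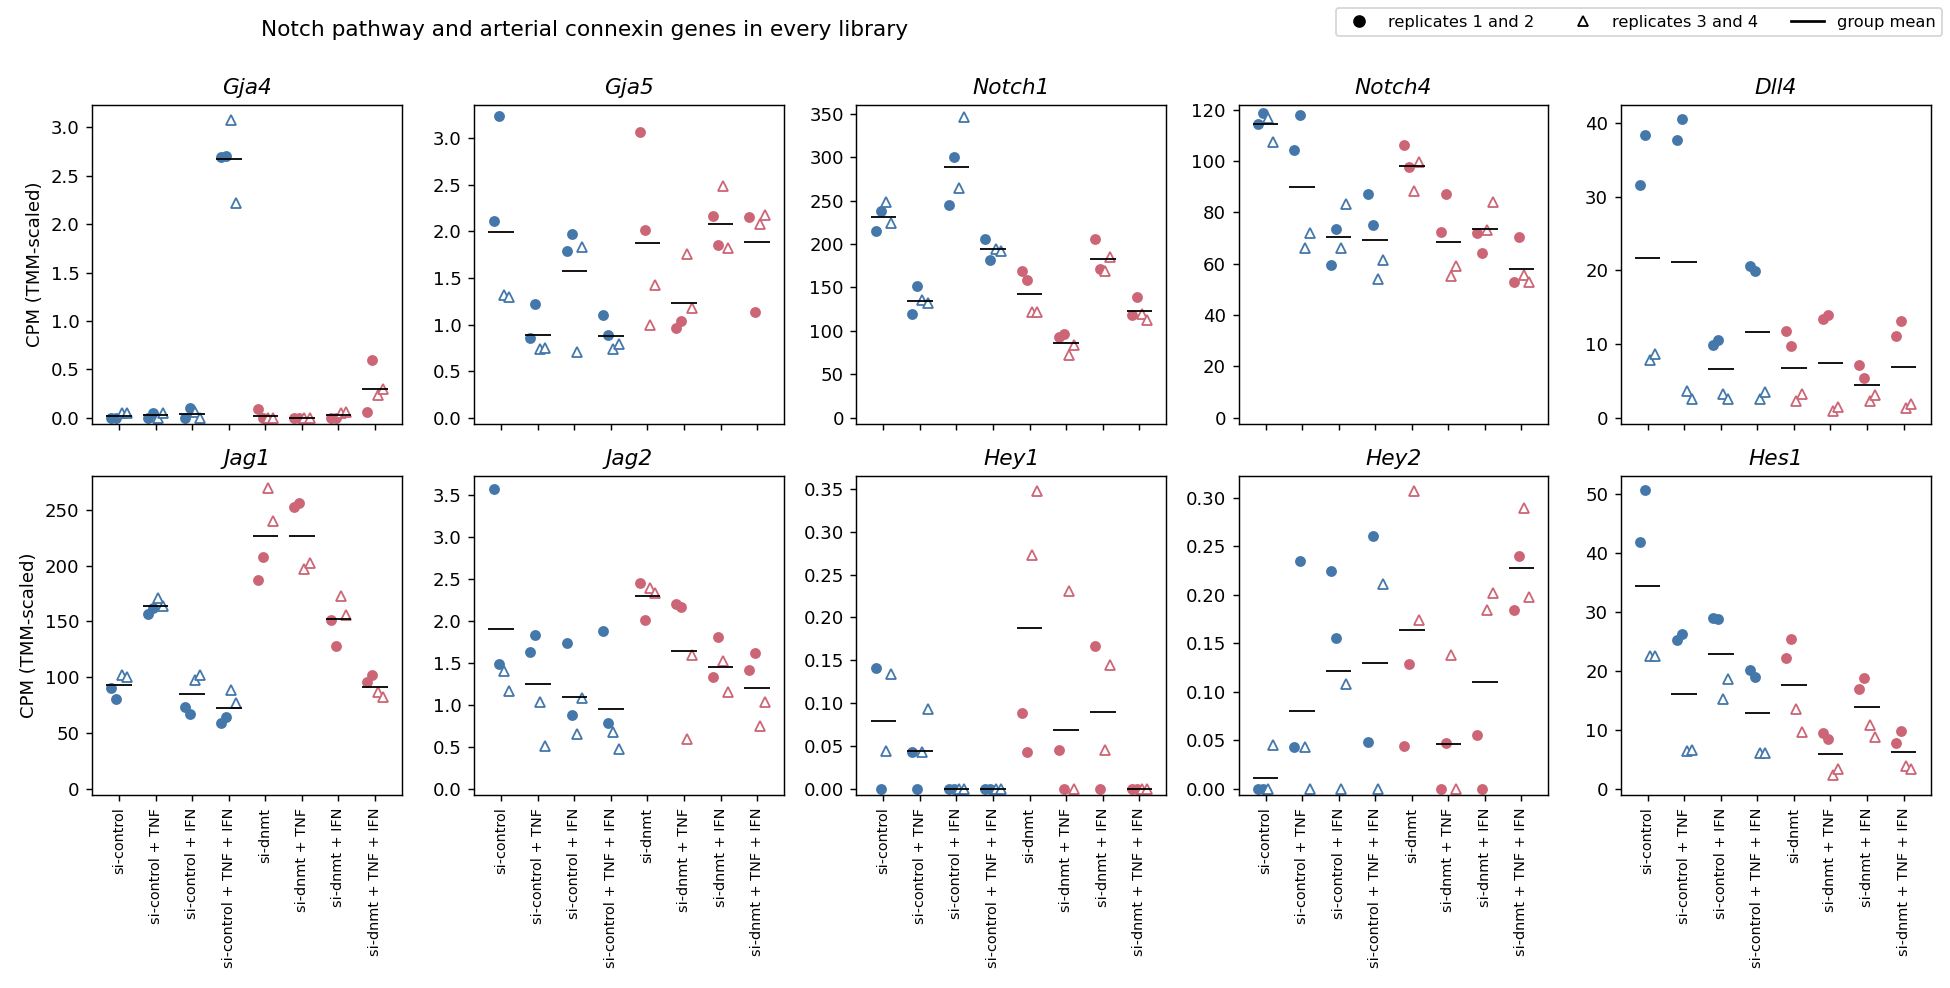
Level of the 10 members in each of the 32 libraries, in CPM (TMM-scaled), with the 8 groups on the horizontal axis, si-control in blue and si-dnmt in red, circles for replicates 1 and 2, triangles for replicates 3 and 4 and lines for group means. Jag1 was higher in si-dnmt than in si-control without cytokine, Gja4 stood above 2 CPM in si-control + TNF + IFN alone, and Dll4 and Hes1 split by replicate set.

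The siRNA comparison asked how loss of Dnmt1 changed these genes in each cytokine state. Genes were tested by edgeR's quasi-likelihood test over 15254 genes and called at an adjusted p under 0.05. The 8 members tested are those that passed the filter on low counts, and Hey1 and Hey2 did not pass. Gja4 passed it through the si-control + TNF + IFN group, so it had to differ there, and counts of members called are a description. Without cytokine 2 of the 8 were called (Jag1 higher, Notch1 lower), beside 18.5% of all genes tested. With TNF the same 2 were called, beside 20.0% of all genes, and with IFN again these 2, beside 20.3%. With TNF + IFN 3 were called, Gja5 higher and Notch1 and, through the filter, Gja4 lower, beside 17.7% of all genes. More of the 8 were called in the blocked fit. It called 4 without cytokine (32.4% of all genes), 5 with TNF (33.4%), 3 with IFN (34.5%) and 5 with TNF + IFN (30.8%). The additions were Hes1 in all 4 states, Dll4 without cytokine and with TNF, Notch4 with TNF and Jag1 with TNF + IFN.

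**Figure D2:**
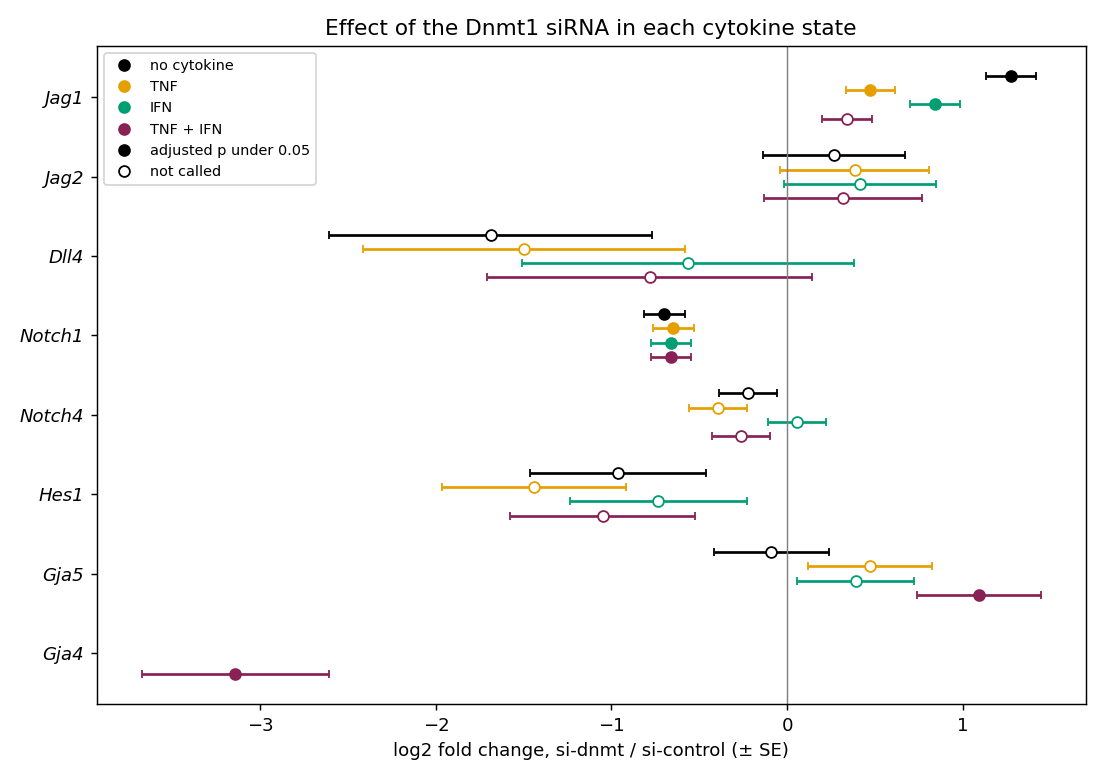
Log2 fold change of si-dnmt over si-control (± SE, n = 4 against 4) for the 8 members tested, in each of the 4 cytokine states, with filled points for an adjusted p under 0.05. Gja4 is drawn for TNF + IFN only, since other groups held at most 3 counts over 4 libraries. The filter admitted Gja4 through this comparison, so the fill of its point is not a test of a difference. Notch1 lay near −0.7 in every state, and Jag1 ran from 1.28 without cytokine to 0.34 with TNF + IFN.

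Among the ligands, Jag1 was higher with si-dnmt, and most so without cytokine. Replicates 1 to 4 read 90.6, 80.2, 102 and 101 CPM under the control siRNA and 187, 208, 270 and 240 CPM under si-dnmt. Each si-dnmt library was above every si-control library. The log2 fold change was 1.28 ± 0.14 (SE, adjusted p = 2.96e-07), a 2.42-fold higher level. With IFN Jag1 measured 73.1, 66.9, 97.4 and 102 CPM under si-control and 151, 128, 173 and 156 CPM under si-dnmt. The groups again did not overlap, and the log2 fold change was 0.84 ± 0.14 (adjusted p = 9.39e-05). With TNF the si-control libraries rose to 157, 163, 171 and 164 CPM and the si-dnmt libraries stood at 252, 257, 197 and 202 CPM. The gap narrowed to 0.47 ± 0.14 on the log2 scale (adjusted p = 0.0166), a call lost without replicate 1 or without replicate 2 of si-dnmt + TNF (adjusted p up to 0.0604). With TNF + IFN Jag1 measured 59.5, 64.8, 88.3 and 77.1 CPM under si-control and 96.2, 102, 86.6 and 82.4 CPM under si-dnmt. These groups overlapped, at 0.34 ± 0.14 (adjusted p = 0.0945), and the blocked fit gave 0.36 ± 0.13 (adjusted p = 0.0311). Replicates 1 and 2 alone gave 0.67 ± 0.10 and replicates 3 and 4 alone 0.03 ± 0.09.

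The siRNA effect on Jag1 differed between states. The siRNA by TNF + IFN interaction was −0.93 ± 0.20 (adjusted p = 0.0217), the only call among the 8 members in that contrast, beside 0.531% of all genes. It was −0.55 in replicates 1 and 2 alone and −1.30 in replicates 3 and 4 alone, and 7 of the 16 fits that left out 1 library lost the call (adjusted p up to 0.0617). The siRNA by TNF interaction of Jag1 was −0.80 ± 0.20 (adjusted p = 0.166), where 0 members and 0.0328% of all genes were called. In the blocked fit it was −0.79 ± 0.18 (adjusted p = 0.0278), 1 member called beside 0.892% of all genes. For the siRNA by IFN interaction Jag1 gave −0.43 ± 0.20 (adjusted p = 1), with 0 members and 0.0459% of all genes called.

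Dll4, the ligand of sprouting tip cells and arteries, was read at different heights in the 2 replicate sets. Without cytokine it measured 31.6 and 38.4 CPM in replicates 1 and 2 of si-control and 7.87 and 8.61 CPM in replicates 3 and 4. In si-dnmt the corresponding values were 11.8 and 9.80 CPM and 2.22 and 3.16 CPM. Within each set si-dnmt was below si-control, while replicates 1 and 2 of si-dnmt were above replicates 3 and 4 of si-control. On the log2 scale si-dnmt differed by −1.69 ± 0.92 (adjusted p = 0.22), and −1.68 ± 0.30 (adjusted p = 8.8e-05) in the blocked fit. With TNF si-control measured 37.7, 40.5, 3.59 and 2.60 CPM and si-dnmt 13.4, 13.9, 0.969 and 1.44 CPM. The same order held within each set, at −1.50 ± 0.92 (adjusted p = 0.276), and −1.41 ± 0.31 (adjusted p = 0.00066) in the blocked fit. With IFN Dll4 measured 9.92, 10.6, 3.22 and 2.59 CPM under si-control and 7.23, 5.34, 2.30 and 3.12 CPM under si-dnmt, so the siRNA groups separated in replicates 1 and 2 only. Neither fit called it (−0.56 ± 0.94, adjusted p = 0.728, and −0.37 ± 0.34, adjusted p = 0.43, in the blocked fit). With TNF + IFN the values were 20.7, 19.9, 2.59 and 3.44 CPM under si-control and 11.1, 13.2, 1.27 and 1.83 CPM under si-dnmt. This gave −0.78 ± 0.93 (adjusted p = 0.629), and −0.79 ± 0.32 (adjusted p = 0.063) in the blocked fit. Each set fitted alone was called, at −0.74 ± 0.14 (adjusted p = 0.000594) in replicates 1 and 2 and −0.95 ± 0.30 (adjusted p = 0.0162) in replicates 3 and 4. The ratio of the mean level in replicates 1 and 2 to that in replicates 3 and 4 was 2.32 to 12.6 over the 8 groups. Exons of Dll4 share 214 bp with a gene on the opposite strand, and no source used here gives the strand setting of the counting.

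**Figure D3:**
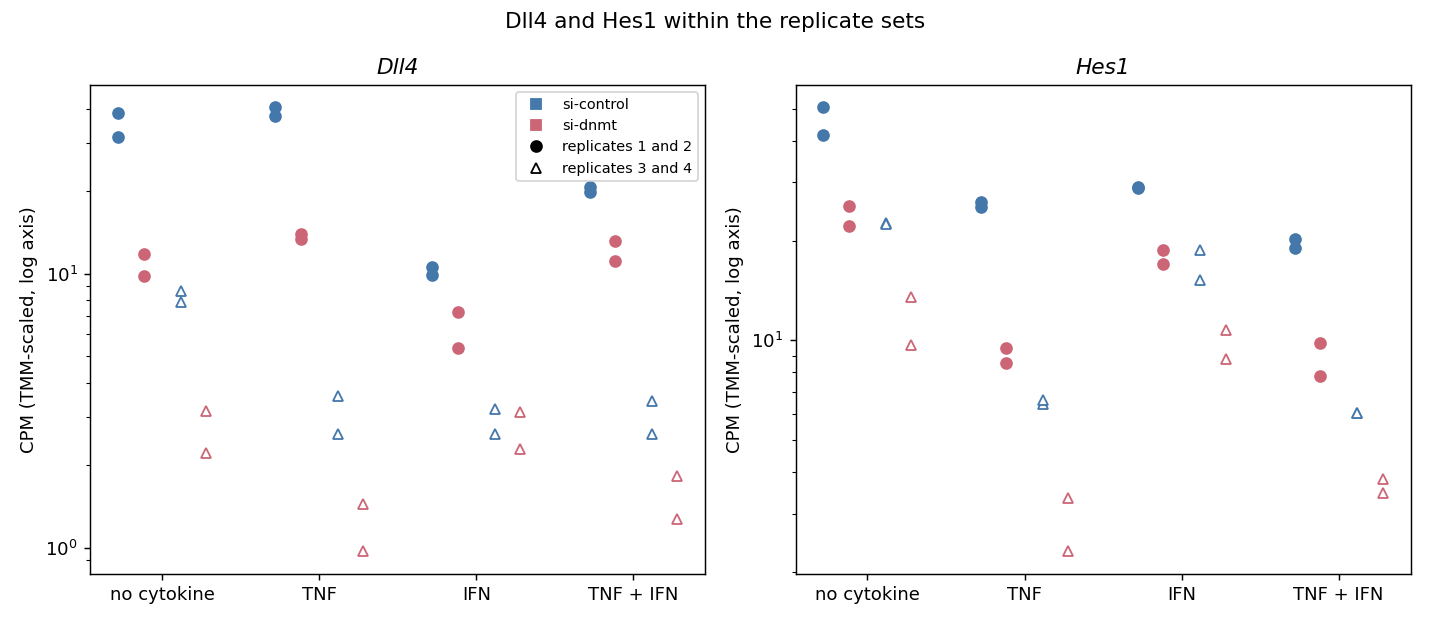
Dll4 and Hes1 in CPM (log axis) in each cytokine state, si-control in blue and si-dnmt in red, circles for replicates 1 and 2 and triangles for replicates 3 and 4, with 1 point per library. Within a replicate set the si-dnmt points of Hes1 lay below the si-control points in all 4 states, and those of Dll4 did so in all states but IFN, where replicates 3 and 4 overlapped.

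Jag2 was low, at 1.91 ± 1.12 CPM (control siRNA) and 2.29 ± 0.195 CPM (si-dnmt). The difference between siRNAs on the log2 scale was 0.27, 0.38, 0.41 and 0.32 without cytokine and with TNF, IFN and TNF + IFN, each with an SE of 0.41 to 0.45. None was called by either fit, and the siRNA groups overlapped in every state.

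Among the receptors, Notch1 fell with si-dnmt in all 4 states. The control siRNA left it at 215, 239, 249 and 224 CPM and in si-dnmt 169, 159, 122 and 122 CPM. With TNF it measured 120, 152, 136 and 132 CPM under si-control and 92.8, 96.0, 71.9 and 83.7 CPM under si-dnmt. With IFN the values were 245, 300, 265 and 347 CPM against 206, 171, 169 and 185 CPM. The TNF + IFN libraries read 206, 182, 194 and 192 CPM against 119, 139, 120 and 113 CPM. The siRNA groups did not overlap in any state. Its log2 fold change stood at −0.70 ± 0.12 without cytokine, −0.65 ± 0.12 with TNF and −0.66 ± 0.12 in each of the other two states, and the adjusted p ran from 8.42e-05 to 0.000189. These correspond to levels 36.2% to 38.4% lower. The call held in each of the fits that left out 1 library. The fall was larger in replicates 3 and 4, at −0.73 to −0.96 over the 4 states, than in replicates 1 and 2, at −0.46 to −0.60. Notch1 exons share up to 1068 bp, 7.5% of their length, with genes on the opposite strand.

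Notch4, a receptor found mainly in endothelium, was not called between siRNAs in any state by the fit without the block. The si-control libraries read 114, 119, 117 and 107 CPM and in si-dnmt 106, 97.5, 88.3 and 99.5 CPM, which gave −0.22 ± 0.16 (adjusted p = 0.385). With TNF it measured 104, 118, 66.1 and 71.7 CPM under si-control and 72.3, 87.3, 55.3 and 58.9 CPM under si-dnmt. The groups overlapped, at −0.39 ± 0.17 (adjusted p = 0.0953), but each set was ordered the same way, and the blocked fit gave −0.39 ± 0.14 (adjusted p = 0.0339). With IFN the log2 fold change was 0.06 ± 0.17 and with TNF + IFN −0.26 ± 0.17, neither called by either fit.

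Hes1, the most abundant of the target genes, was lower with si-dnmt within each replicate set in all 4 states. Without cytokine si-control measured 41.8, 50.6, 22.6 and 22.5 CPM and si-dnmt 22.1, 25.4, 13.5 and 9.66 CPM. On the log2 scale si-dnmt differed by −0.96 ± 0.50 (adjusted p = 0.194), and −0.96 ± 0.18 (adjusted p = 0.00011) in the blocked fit. With TNF si-control measured 25.2, 26.2, 6.44 and 6.59 CPM and si-dnmt 9.47, 8.54, 2.31 and 3.34 CPM. This was −1.44 ± 0.52 (adjusted p = 0.0504), and −1.38 ± 0.20 (adjusted p = 3.38e-06) in the blocked fit. With IFN si-control measured 29.0, 28.8, 15.2 and 18.7 CPM and si-dnmt 17.0, 18.7, 10.8 and 8.77 CPM. The difference was −0.73 ± 0.50 (adjusted p = 0.331), and −0.75 ± 0.18 (adjusted p = 0.00194) in the blocked fit. With TNF + IFN si-control measured 20.2, 19.0, 6.04 and 6.03 CPM and si-dnmt 7.82, 9.84, 3.82 and 3.46 CPM. Here it was −1.05 ± 0.53 (adjusted p = 0.181), and −0.99 ± 0.20 (adjusted p = 0.000421) in the blocked fit. Replicates 1 and 2 stood 1.70-fold to 3.94-fold above replicates 3 and 4 over the 8 groups.

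Hey1 and Hey2, the Hes-related factors linked to arterial fate, were near the limit of detection in these cells. No library held more than 10 counts of Hey1 or 9 of Hey2, and neither was tested. Hey1 had 3, 0, 1 and 3 counts in si-control and 2, 1, 8 and 10 in si-dnmt, a ratio of 2.46 (95% exact interval 1.01 to 6.85, counting error only). It was at 0 in all 4 libraries of si-control + IFN, si-control + TNF + IFN and si-dnmt + TNF + IFN. With IFN it summed to 9 counts in si-dnmt against 0 in si-control, with a lower exact bound of 1.49 for the ratio (counting error only). With TNF the sums were 6 in si-dnmt and 4 in si-control, a ratio of 1.59 (0.377 to 7.65). A count of 0 allows up to 3 counts, 0.0865 to 0.185 CPM at these depths. Hey2 had 0, 0, 0 and 1 counts in si-control and 1, 3, 9 and 5 in si-dnmt, a ratio of 14.8 (2.33 to 615). In the cytokine states it summed to 7, 9 and 10 counts in si-control with TNF, IFN and TNF + IFN and to 4, 12 and 16 in si-dnmt, and the intervals of these ratios all held 1.

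Gja4 was seen in 1 cytokine state only. In si-control + TNF + IFN it had 56, 52, 50 and 42 counts, or 2.69, 2.71, 3.08 and 2.22 CPM. In si-dnmt + TNF + IFN it had 1, 10, 4 and 6 counts, or 0.0615, 0.600, 0.231 and 0.296 CPM. In the other 24 libraries it had 0 to 2 counts. Under TNF + IFN the si-dnmt counts were 0.112 of the si-control counts per library size (0.0678 to 0.176, counting error only), with no overlap between groups. On the log2 scale si-dnmt differed by −3.14 ± 0.53, with −3.00 ± 0.68 in replicates 1 and 2 alone and −3.29 ± 0.54 in replicates 3 and 4 alone. No p is given, since the filter admitted Gja4 through this comparison. In the other 3 states both siRNA groups held 0 to 3 counts in all, so a siRNA difference was not detectable there at this depth. The siRNA by TNF + IFN interaction, which rests on the same comparison, was −2.94 ± 1.75 and was not called.

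Gja5 went the other way with TNF + IFN. It measured 1.11, 0.885, 0.740 and 0.794 CPM in si-control (12 to 23 counts per library) and 2.15, 1.14, 2.08 and 2.17 CPM under si-dnmt (19 to 44 counts). Each si-dnmt library was above every si-control library, with replicate 2 of si-dnmt close to replicate 1 of si-control. On the log2 scale si-dnmt differed by 1.09 ± 0.35 (adjusted p = 0.0308), and in 6 of the 8 fits that left out a library of these 2 groups the call was lost, with an adjusted p up to 0.0823. Replicates 3 and 4 alone gave the call, and replicates 1 and 2 alone did not. Without cytokine Gja5 measured 2.11, 3.23, 1.32 and 1.30 CPM under si-control and 3.07, 2.01, 0.990 and 1.42 CPM under si-dnmt, which overlapped (−0.09 ± 0.33, adjusted p = 0.891). With TNF it measured 0.859, 1.22, 0.735 and 0.743 CPM under si-control and 0.961, 1.03, 1.75 and 1.18 CPM under si-dnmt. The siRNA groups thus separated in replicates 3 and 4 only, and the pooled log2 fold change was 0.47 ± 0.35. With IFN the log2 fold change was 0.39 ± 0.33, and the siRNA by TNF + IFN interaction was 1.18 ± 0.48 (adjusted p = 0.399). Gja5 exons share 165 bp with Gpr89 on the opposite strand, and Gpr89 gave −0.04 ± 0.09 (adjusted p = 0.825) for the siRNA with TNF + IFN. Other connexins and pannexins were sparse: 3 of 21 (Gja1, Gjc1 and Panx1) were tested and 0 were called by the siRNA in any state. The blocked fit called Gja1 (connexin 43) lower in all 4 states, by 0.22 to 0.81 on the log2 scale.

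The cytokine comparisons asked how each state changed the members under each siRNA, and those of 1 siRNA share their no-cytokine libraries. In si-control, TNF called 3 of the 8 (30.8% of all genes), IFN 1 (14.5%) and TNF + IFN 5 (45.2%). In si-dnmt, TNF called 3 (21.0%), IFN 2 (9.01%) and TNF + IFN 4 (40.2%). The blocked fit called 5 with TNF (43.4% of all genes), 4 with IFN (25.4%) and 8 with TNF + IFN (55.1%) in si-control. In si-dnmt it called 3 (34.3%), 3 (19.0%) and 5 (51.7%) in the same order. All of these TNF + IFN counts, in both fits, include Gja4. The filter admitted it through si-control + TNF + IFN, so its call in si-control was fixed in advance.

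**Figure D4:**
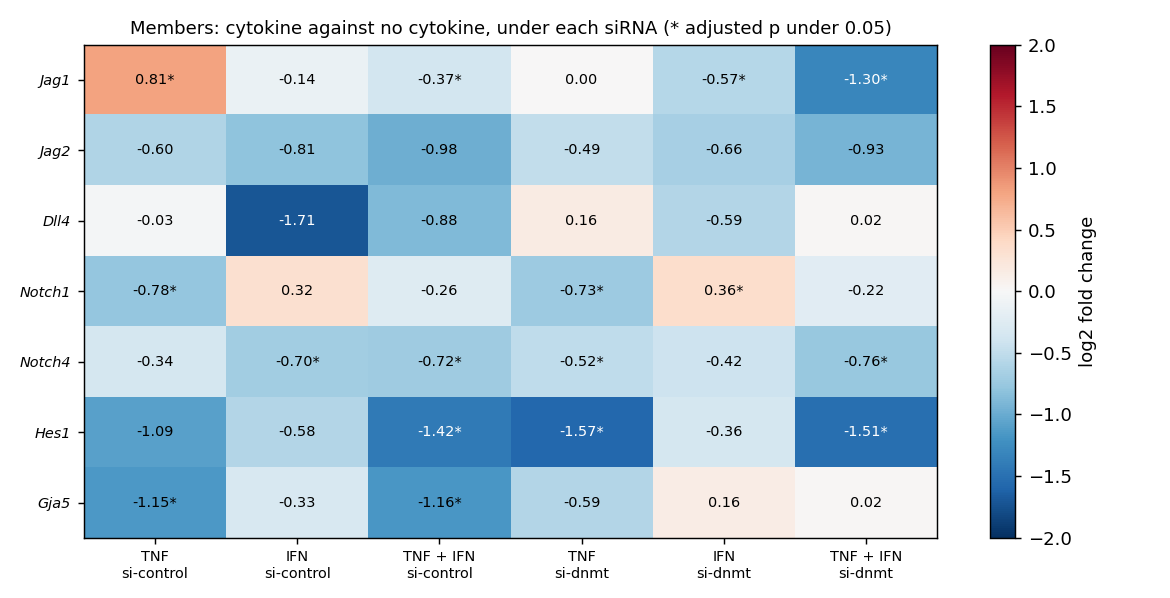
Log2 fold change of each cytokine state over no cytokine, under si-control (left 3 columns) and si-dnmt (right 3 columns), for 7 members, with red for higher, blue for lower and a star for an adjusted p under 0.05. Gja4 is left out because its no-cytokine groups held 2 counts each. TNF raised Jag1 in si-control (0.81), the 0.00 in si-dnmt averages replicate sets that moved in opposite directions, and the 3 stars of Hes1 are all falls.

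Jag1 rose with TNF in si-control, and in si-dnmt, where it started higher, the replicate sets disagreed. TNF changed it by 0.81 ± 0.14 (adjusted p = 6.46e-05) in si-control and by 0.00 ± 0.14 (adjusted p = 0.988) in si-dnmt. There the sets moved in opposite directions, by 0.37 ± 0.10 in replicates 1 and 2 and −0.35 ± 0.08 in replicates 3 and 4. IFN gave −0.14 ± 0.14 (adjusted p = 0.609) in si-control and −0.57 ± 0.14 (adjusted p = 0.00635) in si-dnmt. TNF + IFN gave −0.37 ± 0.14 (adjusted p = 0.0333) in si-control, a call that 4 single-library omissions removed, and −1.30 ± 0.14 (adjusted p = 1.75e-08) in si-dnmt. Under both siRNAs every library with TNF + IFN was below every library with TNF alone. The TNF by IFN interaction, the part of the joint response not given by adding the single ones, was −1.04 ± 0.20 (adjusted p = 0.00397) in si-control, 1 of 8 members beside 1.06% of all genes. In si-dnmt it was −0.73 ± 0.20 (adjusted p = 0.149), where 0 members and 0.354% of all genes were called. The blocked fit gave −0.74 ± 0.18 (adjusted p = 0.0209), 1 member beside 1.82% of all genes.

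Notch1 fell with TNF by 0.78 ± 0.12 on the log2 scale in si-control (adjusted p = 7.87e-06) and by 0.73 ± 0.12 in si-dnmt (adjusted p = 3.6e-05). With IFN it gave 0.32 ± 0.12 (adjusted p = 0.0625) in si-control and 0.36 ± 0.12 (adjusted p = 0.0498) in si-dnmt. The blocked fit called both (adjusted p = 0.0278 and 0.0165), and 5 single-library omissions removed the si-dnmt call. Replicates 3 and 4 alone gave the IFN call under both siRNAs, and replicates 1 and 2 alone gave it under neither. With TNF + IFN Notch1 was at −0.26 ± 0.12 (adjusted p = 0.0696) in si-control, called by the blocked fit (adjusted p = 0.0427), and −0.22 ± 0.12 (adjusted p = 0.133) in si-dnmt. Single sets called this fall in replicates 3 and 4 only in si-control and in replicates 1 and 2 only in si-dnmt. The mean of Notch1 was lowest with TNF and highest with IFN under both siRNAs.

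Notch4 was lower with IFN in si-control (59.5, 73.5, 65.9 and 83.1 CPM against 107 to 119 CPM without cytokine), at −0.70 ± 0.17 (adjusted p = 0.00378). In si-dnmt IFN gave −0.42 ± 0.17 (adjusted p = 0.13), called by the blocked fit (adjusted p = 0.0409). TNF + IFN gave −0.72 ± 0.17 (adjusted p = 0.000779) in si-control and −0.76 ± 0.17 (adjusted p = 0.000513) in si-dnmt. TNF alone gave −0.34 ± 0.16 (adjusted p = 0.117, blocked 0.0338) in si-control, where only replicates 3 and 4 moved (−0.70 against −0.05), and −0.52 ± 0.17 (adjusted p = 0.0259) in si-dnmt, a call that 3 single-library omissions removed.

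Hes1 fell with TNF + IFN by 1.42 ± 0.51 on the log2 scale in si-control (adjusted p = 0.0241) and by 1.51 ± 0.53 in si-dnmt (adjusted p = 0.0228), and each call was lost in 4 of the 8 fits that left out a library of those groups. TNF alone gave −1.09 ± 0.50 (adjusted p = 0.102) in si-control and −1.57 ± 0.52 (adjusted p = 0.0312) in si-dnmt, and the blocked fit called both (adjusted p = 2.17e-06 and 1.18e-07). The si-dnmt call also was lost in 4 single-library omissions (adjusted p up to 0.105). IFN gave −0.58 ± 0.50 in si-control (adjusted p = 0.522, blocked 0.025) and −0.36 ± 0.50 in si-dnmt, called by neither fit. The TNF effect was larger in replicates 3 and 4 (−1.79 in si-control and −2.04 in si-dnmt) than in replicates 1 and 2 (−0.83 and −1.39).

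Dll4 showed the replicate split in its cytokine response as well. IFN gave −1.71 ± 0.93 (adjusted p = 0.258) in si-control, −1.69 ± 0.32 (adjusted p = 0.000141) in the blocked fit, and −1.74 and −1.50 in replicates 1 and 2 and in replicates 3 and 4. TNF gave 0.18 ± 0.13 in replicates 1 and 2 and −1.41 ± 0.23 in replicates 3 and 4, so that the pooled value of −0.03 ± 0.89 described neither set. TNF + IFN gave −0.88 ± 0.90 (adjusted p = 0.451) in si-control and −1.06 ± 0.30 (adjusted p = 0.00343) in the blocked fit. In si-dnmt neither fit called a Dll4 response, but single sets did. IFN gave −0.79 ± 0.16 (adjusted p = 0.00072) in replicates 1 and 2 and 0.04 ± 0.25 in replicates 3 and 4. TNF gave 0.35 ± 0.14 and −1.17 ± 0.30 (adjusted p = 0.00497) in the same order, and TNF + IFN 0.18 ± 0.15 and −0.78 ± 0.29 (adjusted p = 0.0325).

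In si-control Gja5 fell with TNF and with TNF + IFN, and IFN gave −0.33 ± 0.33 (adjusted p = 0.613). TNF lowered Gja5 by 1.15 ± 0.34 on the log2 scale (adjusted p = 0.0115) and TNF + IFN by 1.16 ± 0.35 (adjusted p = 0.00801), and both calls were lost without replicate 2 of si-control (adjusted p = 0.0791 and 0.0601). Replicates 1 and 2 alone gave both calls, and replicates 3 and 4 alone gave neither. In si-dnmt Gja5 gave −0.59 ± 0.34 (adjusted p = 0.231) with TNF and 0.02 ± 0.33 (adjusted p = 0.967) with TNF + IFN. Of these, the change with TNF was called in replicates 1 and 2 alone and not in replicates 3 and 4 alone. Jag2 gave −0.98 ± 0.43 (adjusted p = 0.0668, blocked 0.0136) with TNF + IFN in si-control and −0.93 ± 0.42 (adjusted p = 0.0823, blocked 0.0101) in si-dnmt. Under both siRNAs replicates 3 and 4 alone called this fall of Jag2, and replicates 1 and 2 alone did not. Leaving out 1 library moved the si-control value between −1.56 and −0.487.

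Gja4 counts were higher with TNF + IFN under both siRNAs, and a change with either cytokine alone was not detectable at this depth. In si-control the 4 libraries summed to 200 counts with TNF + IFN, 2 without cytokine, 2 with TNF and 3 with IFN. The ratio to no cytokine was 113 (31 to 943, counting error only), that to TNF 119 (32.5 to 988) and that to IFN 65.6 (22.1 to 321). In si-dnmt the sums were 21 with TNF + IFN, 2 without cytokine, 0 with TNF and 3 with IFN, a ratio to no cytokine of 15.5 (3.79 to 136). In si-dnmt replicates 1 and 2 held 1 and 10 counts against 2 and 0 without cytokine, and replicates 3 and 4 held 4 and 6 against 0 and 0. No p is given for these ratios because the filter fixed them in si-control. The TNF by IFN interaction was not called in si-control (5.90 ± 1.95) or in si-dnmt (5.19 ± 1.98), with 0 to 3 counts in each of the other groups it rests on.

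Beyond the members, 46 genes of the Notch pathway were tested (other ligands and receptors, their modifiers, receptor processing, the nuclear complex, turnover and the Hes and Hey family). The siRNA called 16 of them without cytokine (9 higher and 7 lower), 13 with TNF, 12 with IFN and 12 with TNF + IFN. These are 34.8%, 28.3%, 26.1% and 26.1% of the 46, beside the 18.5%, 20.0%, 20.3% and 17.7% of all genes given above. The median log2 fold change of the 46 was 0.04, 0.01, 0.02 and 0.02, so they moved in both directions. The blocked fit called 27, 21, 26 and 20, which are 58.7%, 45.7%, 56.5% and 43.5% of the 46, beside its 32.4%, 33.4%, 34.5% and 30.8% of all genes.

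**Figure D5:**
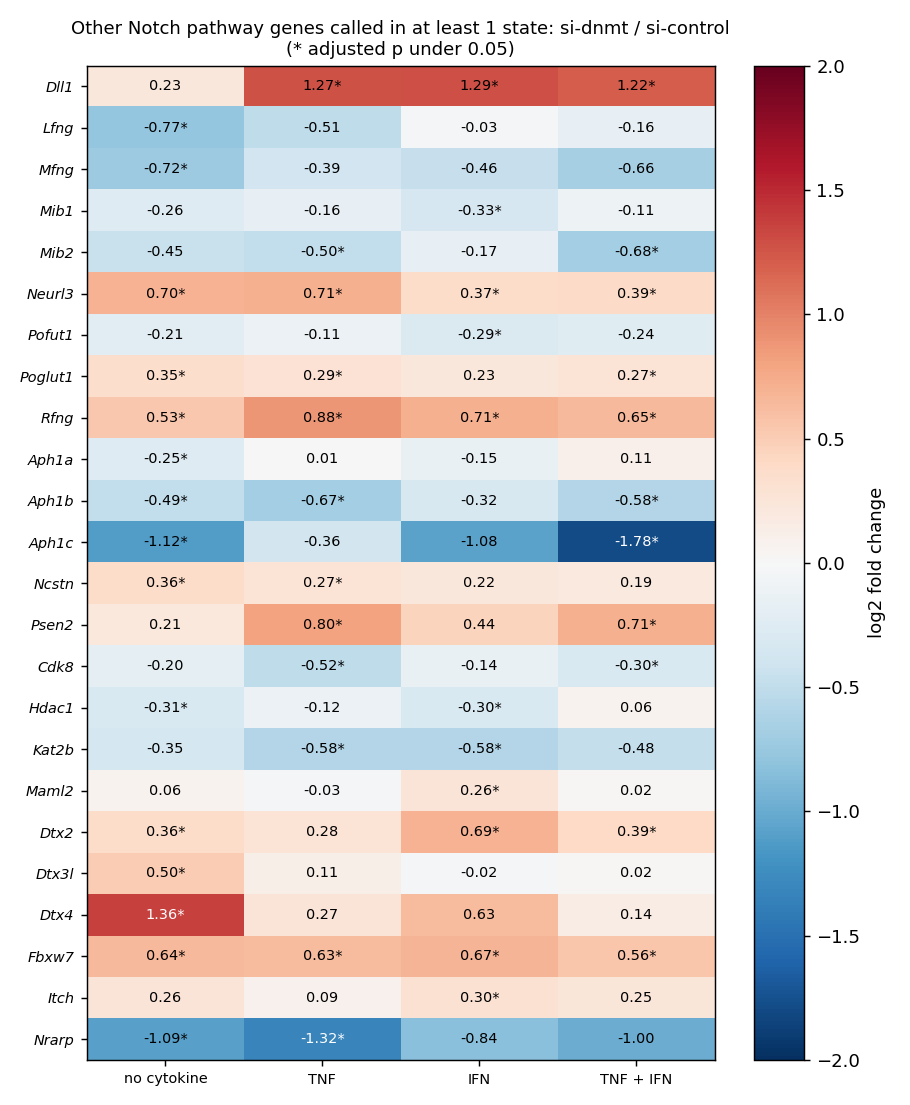
Log2 fold change of si-dnmt over si-control in the 4 cytokine states for 24 Notch pathway genes outside the members, each called in at least 1 state, with a star for an adjusted p under 0.05, red for higher and blue for lower. Fbxw7, Neurl3 and Rfng rose in all 4 states, and Dll1 in the 3 states with a cytokine.

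Of 6 other ligands and receptors 3 were tested. Dll1, a ligand that activates Notch receptors like Dll4, stood at 6.13 ± 2.39 CPM (SD, n = 4) with the control siRNA against 7.22 ± 0.247 CPM with si-dnmt, and the siRNA gave 0.23 ± 0.22 (adjusted p = 0.517) without cytokine. In the states with a cytokine it rose with si-dnmt, by 1.22 ± 0.22 (TNF + IFN, adjusted p = 0.000213) to 1.29 ± 0.23 (IFN). Under both cytokines this was a step from 10.3 ± 3.46 to 24.0 ± 1.28 CPM. Its siRNA by TNF + IFN interaction was 0.98 ± 0.31 (adjusted p = 0.191). The TNF by IFN interaction of Dll1 in si-control was 1.94 ± 0.32 (adjusted p = 0.000881), of opposite sign to that of Jag1. Notch2 gave 0.93 ± 0.60 (adjusted p = 0.311) and Notch3 1.03 ± 0.78 (adjusted p = 0.4) without cytokine. Notch3 also stands in the pericyte and smooth muscle list above. The blocked fit called both higher there (adjusted p = 8.57e-06 and 0.0117).

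Genes that modify ligands and receptors moved both ways: with TNF + IFN 3 of 10 were higher and 1 lower, beside 17.7% of all genes called. Neurl3, a ubiquitin ligase of the Neuralized family, rose with si-dnmt in every state (0.70, 0.71, 0.37 and 0.39 without cytokine and with TNF, IFN and TNF + IFN). It was also cytokine-responsive, from 121 ± 4.86 CPM in si-control to 928 ± 60.2 CPM in si-control + TNF + IFN. Rfng, a Fringe glycosyltransferase that adds sugar to Notch receptors, rose in every state by 0.53 to 0.88. Poglut1 rose in 3 states. Mib2, a ligase for Notch ligands, gave −0.50 ± 0.17 under TNF (adjusted p = 0.0337), and under TNF + IFN the difference was −0.68 ± 0.17 (adjusted p = 0.00455).

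In receptor processing, Psen2, a gene of the γ-secretase complex, rose with si-dnmt by 0.80 ± 0.19 in TNF-treated cells (adjusted p = 0.00261) and by 0.71 ± 0.19 under both cytokines (adjusted p = 0.00781). The γ-secretase subunit gene Aph1c was lower with TNF + IFN (−1.78 ± 0.53, adjusted p = 0.0186), at 0.146 ± 0.117 against 0.508 ± 0.163 CPM. The lower level lay within the 0.0865 to 0.185 CPM that 3 counts correspond to, so this change rests on few counts. Of 12 nuclear complex genes 1, Cdk8, was called lower with TNF + IFN (−0.30 ± 0.09, adjusted p = 0.0229). Rbpj itself gave 0.22 ± 0.11 (adjusted p = 0.191) without cytokine. Cytokines moved Rbpj more, by 0.78 ± 0.11 (adjusted p = 4.78e-06) with TNF and 1.24 ± 0.11 (adjusted p = 4.43e-10) with TNF + IFN in si-control. In the turnover list Fbxw7, which marks the Notch intracellular domain for degradation, rose in all 4 states (0.64, 0.63, 0.67 and 0.56), from 26.0 ± 3.78 to 40.5 ± 7.67 CPM without cytokine. Nrarp, a Notch target that feeds back on the pathway, gave −1.09 ± 0.37 without cytokine (adjusted p = 0.0391) and −1.32 ± 0.39 under TNF (adjusted p = 0.0172), and the blocked fit called it lower in all 4 states.

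In the list drawn up as upstream regulators of Notch and arterial genes, 2 genes fell with si-dnmt in every state. Mef2c, a transcription factor of endothelial and muscle cells, fell by 1.21, 1.41, 1.23 and 1.28 on the log2 scale, from 73.4 ± 7.61 to 31.8 ± 9.18 CPM without cytokine. Nos3, the endothelial nitric oxide synthase, fell by 0.46, 0.58, 0.35 and 0.76. With TNF + IFN 3 of 12 were lower and 0 higher, beside 17.7% of all genes called, and the median of the 12 was −0.255. Kdr was called higher with si-dnmt without cytokine and with IFN.

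Of 18 arterial marker genes outside the members 16 were tested. The siRNA called 2 higher and 2 lower without cytokine, 1 and 5 with TNF, 2 and 0 with IFN and 1 and 0 with TNF + IFN, beside 18.5%, 20.0%, 20.3% and 17.7% of all genes in either direction. In the blocked fit the calls were 3 and 5, 1 and 7, 2 and 5 and 1 and 3, beside 32.4%, 33.4%, 34.5% and 30.8% of all genes. Replicates 3 and 4 alone gave 2 and 8, 2 and 7, 3 and 7 and 1 and 5. Over all genes that fit called 5543, 5521, 5853 and 5497. Replicates 1 and 2 alone gave 1 and 5, 2 and 9, 2 and 4 and 2 and 6, and over all genes 3674, 4015, 3877 and 3650. With all replicates and no block the calls over all genes were 2816, 3050, 3103 and 2699. Vegfc, a growth factor for lymphatic and other ECs, rose in all 4 states, by 1.71 ± 0.42, 0.91 ± 0.32, 1.16 ± 0.42 and 1.41 ± 0.33. In replicates 1 and 2 alone Vegfc was not called without cytokine (0.92 ± 0.38, adjusted p = 0.0849) or with IFN (0.84 ± 0.37, adjusted p = 0.103). Of 12 venous markers 9 were tested, and with TNF + IFN 1 was higher and 3 lower, beside 17.7% of all genes called. Nr2f2 (COUP-TFII), the factor that sets venous identity by holding down Notch, fell by 1.52 ± 0.26 (adjusted p = 0.000129), from 63.5 ± 5.21 to 22.2 ± 6.26 CPM. Selp (P-selectin) rose by 1.05 ± 0.22 (adjusted p = 0.00107). Without cytokine 0 of the 9 venous genes were called, beside 18.5% of all genes. The blocked fit called 3, all lower, beside 32.4% of all genes, with Nr2f2 at −0.70 ± 0.14 (adjusted p = 0.000223). TNF + IFN in si-control called 2 arterial genes higher and 9 lower, and 2 venous genes higher and 6 lower, beside 45.2% of all genes.

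The pattern over the 8 group means was compared between each tested member and all genes, as a description over groups that share control cells. The closest to Notch1 were Hoxb3 (Pearson r = 0.994) and Cyp39a1 (0.991), to Hes1 Dock9 (0.995) and Ube2g1 (0.990), to Jag1 Cd55 (0.990) and Fastkd1 (0.986) and to Notch4 4933415A04Rik (0.990) and Rnf170 (0.977). Those closest to Dll4 were Anks6 (0.971) and Gm43681 (0.962), to Jag2 Tfdp2 (0.990) and Tmem245 (0.990), to Gja5 Unkl (0.974) and Coq10a (0.967) and to Gja4 Pcid2 (0.977) and Unk (0.970). Pcid2 and Unk varied by 0.4 and 0.34 on the log2 scale over the groups, far less than Gja4. Among the members themselves the highest r was between Hes1 and Notch1 (0.827), followed by Hes1 and Notch4 (0.759) and Dll4 and Notch4 (0.727), and the lowest was between Jag1 and Notch1 (−0.675).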

How the data were processed

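Bulk RNA-seq libraries of the 8 groups were analysed from gene counts. Per the labels and the study's methods, the authors trimmed reads (cutadapt 4.9, checked with FastQC 0.12.1 and MultiQC 1.27.1) and deposited whole-number read counts per gene from featureCounts, not normalised, while no source used here gives the aligner, genome build, annotation or strand setting. Counts of overlapping or antisense genes are therefore uncertain. The study describes 4 biological replicates, and the labels give no day or batch.

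Genes were kept with edgeR's filterByExpr (minimum count 10), scaled by TMM (factors 0.880 to 1.09) and fitted with 8 group means in edgeR 4.0.16 (quasi-likelihood test, two-sided, limma 3.58.1, R 4.3.3). P-values were adjusted by Benjamini-Hochberg over 15254 genes in each of 15 contrasts and called under 0.05. The fit was tested on simulated data. Levels are CPM, and ratios of low counts carry exact 95% intervals for counting error only. Exon lengths and overlaps came from the GENCODE annotation supplied with the reference. DESeq2 1.42.0 served as an alternative, and Python 3.11.15, numpy 2.4.6, pandas 2.3.3 and matplotlib 3.10.9 were used for tables and plots.

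Replicate numbers come from the labels. Over 112 pairs, same-numbered libraries of different groups deviated together (r 0.297 to 0.617, median 0.415), so the number was treated as pairing them and used as a block in an alternative fit. Libraries with the other number of the same set gave a median of 0.409, and 24 of the 32 libraries correlated best with their own number. No replicate pair agreed within sampling noise (chi-square per degree of freedom 3.49 to 98.7 over 48 pairs).

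The members and gene lists were chosen with earlier results of these data known. Named genes were all members, list genes called the same way in all 4 siRNA contrasts, the largest rise and fall of each list with TNF + IFN between siRNAs, Dnmt1, Pecam1, Cdh5 and the 2 genes nearest in pattern to each member. Other genes were named after their values were seen. One gene that met this rule is not reported here, though the list counts include it. Alternatives were the replicate block, each replicate set alone, DESeq2 size factors, no low-count filter, the DESeq2 Wald test, the compared groups alone and leaving out 1 library at a time.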

Additional observations from a re-analysis of the deposited data

Results flagged for a closer look

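Among 64 groups of 4 libraries, 3 held a library whose gap to its nearest neighbour was above Dixon's critical value for 4 samples. The gap was taken as a share of the group's range on log2 CPM with a prior count of 2, and chance flags about 1 group in 20. Gja4 in si-dnmt had 2 counts in replicate 1 and 0 in the others, a share of 1. Gja5 in si-control + IFN was 0.709 CPM in replicate 3 against 1.79 to 1.98 CPM, a share of 0.902. Gja5 in si-dnmt + TNF + IFN was 1.14 CPM in replicate 2 against 2.08 to 2.17 CPM, a share of 0.933.

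The siRNA effect on Jag1 differed between TNF + IFN and no cytokine, with an interaction of -0.934 on the log2 scale (edgeR, adjusted p = 0.0217), from 1.28 ± 0.14 without cytokine to 0.34 ± 0.14 with both. The call was lost in 7 fits that left out 1 library (adjusted p up to 0.0617) and in the fit of the compared groups alone. The interaction was smaller in replicates 1 and 2 alone than in replicates 3 and 4 alone.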

How the results depend on the processing

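The counts are of 8 members, and those with TNF + IFN can include Gja4, which the filter admitted through si-control + TNF + IFN. The replicate block moved the siRNA counts to 4 without cytokine, 5 with TNF and 5 with TNF + IFN, the si-control counts to 5 with TNF, 4 with IFN and 8 with TNF + IFN, and the siRNA by TNF and si-dnmt TNF by IFN interactions from 0 to 1 each, and it moved the other 7 counts by at most 1.5 times. It added 20 calls of single members and removed none of 120. Replicates 1 and 2 alone gave siRNA counts of 4, 5, 4 and 6 (no cytokine, TNF, IFN, TNF + IFN), 3 for IFN in si-control, 5 for TNF and 4 for IFN in si-dnmt, and interaction counts of 1 (siRNA by TNF), 1 (siRNA by IFN), 2 (siRNA by TNF + IFN), 2 (TNF by IFN, si-control) and 1 (TNF by IFN, si-dnmt). Over all genes this fit called 3674, 4015, 3877 and 3650 for the siRNA. It called 3903 for IFN in si-control, 5426 for TNF and 2987 for IFN in si-dnmt. Its interaction totals were 303, 276, 747, 1632 and 737 in the same order. Replicates 3 and 4 alone gave siRNA counts of 4, 5 and 5 (no cytokine, TNF, TNF + IFN), 5 for TNF and 3 for IFN in si-control, 6 for TNF in si-dnmt, and interaction counts of 1 (siRNA by TNF), 2 (siRNA by IFN), 2 (TNF by IFN, si-control) and 1 (TNF by IFN, si-dnmt). Over all genes this fit called 5543, 5521 and 5497 for the siRNA. It called 6745 for TNF and 3331 for IFN in si-control and 3812 for TNF in si-dnmt. Its interaction totals were 1221, 154, 661 and 318 in the same order. With all replicates and no block, fewer genes were called in each of these comparisons. There were 2816, 3050, 3103 and 2699 for the siRNA in the 4 states. TNF and IFN gave 4691 and 2209 in si-control and 3209 and 1375 in si-dnmt. The interactions gave 5, 7, 81, 162 and 54 in the order listed for replicates 1 and 2. In replicates 3 and 4 alone 3 signs turned in si-dnmt: Jag1 with TNF (-0.35), Dll4 with TNF (-1.17) and Dll4 with TNF + IFN (-0.78), and the cause was not tested. IFN in si-dnmt fell from 2 to 1 with DESeq2 size factors, with no low-count filter and with the DESeq2 Wald test, the siRNA by TNF interaction rose from 0 to 1 with the Wald test, and the siRNA by TNF + IFN interaction fell from 1 to 0 with the compared groups alone, which leaves fewer samples. Leaving out 1 library at a time gave 2 to 4 for the siRNA with TNF, 1 to 2 for IFN in si-control and in si-dnmt, 3 to 5 for TNF + IFN in si-control, 1 to 3 for TNF in si-dnmt and 0 to 1 for the siRNA by TNF + IFN interaction. These omissions removed 41 single-member calls and added 12. Depth limits Gja4, Hey1 and Hey2, with 3 counts corresponding to 0.0865 to 0.185 CPM.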
